A study of Mus musculus with 15 samples.

Results

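The comparison described here is that of pancreatic islets from 3 NOD mice at 12 weeks of age with islets from 3 NOD mice at 8 weeks, 6 of the 15 mice of a series that also holds 3 mice each at 4, 6 and 10 weeks. The 6 samples were chosen by their age labels alone and by no measured value. All mice were untreated NOD females (genotype NOD in the labels), so no group carried an engineered allele or a treatment, and the 12-week mice of the study had normal blood glucose. Each age had 3 mice and 3 samples. Islets were freed with collagenase, separated on a density gradient and picked by hand, and their polyadenylated RNA was sequenced in bulk. The series follows insulitis, the entry of leukocytes into the islets, as it develops, and the comparison asks what changed over the last 4 weeks of that course.

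In the NOD mouse, autoimmune leukocytes first gather around the islets and then enter them, and the beta cells that make insulin are lost. T cells recognize peptides shown on MHC molecules and release interferon gamma, which acts on other cells. B cells present antigen and make antibody. Lasting infiltrates can take on features of lymph nodes, with separate B-cell and T-cell areas and with high endothelial venules (HEVs), the vessels through which naive lymphocytes leave the blood.

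Levels are given in CPM (counts-per-million), the reads of a gene relative to the library total after TMM scaling between libraries, in the order replicate 1, 2 and 3 of each age. Changes are log2 fold changes at 12 against 8 weeks with their standard errors from an edgeR fit over all 15 mice, 1 mean per age, and p-values were adjusted over the 16554 genes tested. A gene is said to have risen or fallen where its adjusted p was under 0.05. DEGs, as the study defines them, have a fold change of at least 1.5 and an unadjusted p under 0.05. Libraries of the 6 mice held 26955671 to 29113274 reads, so that 3 counts, taken as the floor, equal 0.0943 to 0.109 CPM. This floor covers counting error alone. Litter and cage are not given in the labels, and the p-values measure the spread between these mice.

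The samples carried the marks of islets at both ages. Ins1 and Ins2 together made up 39.6, 33.2 and 33.6% of the transcript total (TPM, reads per gene length) at 8 weeks and 27.1, 28.8 and 25.2% at 12 weeks. One 8-week mouse, replicate 1, stood apart in its immune genes: the mean log2 CPM of 6 pan-leukocyte genes was 3.44, 5.84 and 6.31 at 8 weeks and 7.31, 7.33 and 7.78 at 12 weeks. Its low leukocyte level widened the spread at 8 weeks. The standard deviation of that 6-gene mean at 4, 6, 8, 10 and 12 weeks was 1.46, 1.20, 1.54, 0.60 and 0.27. Since 1 mouse could decide a count, the number of list members called is followed by the numbers called when each mouse was left out of the fit, always in the order 8-week replicates 1, 2 and 3 and then 12-week replicates 1, 2 and 3. Smaller departures were seen in 12-week replicate 1, which held genes of the intestinal epithelium, and in 12-week replicate 2, which held genes of lymph node sinus macrophages and low interferon-induced genes. These are described where they touch a result.

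**Figure D1:**
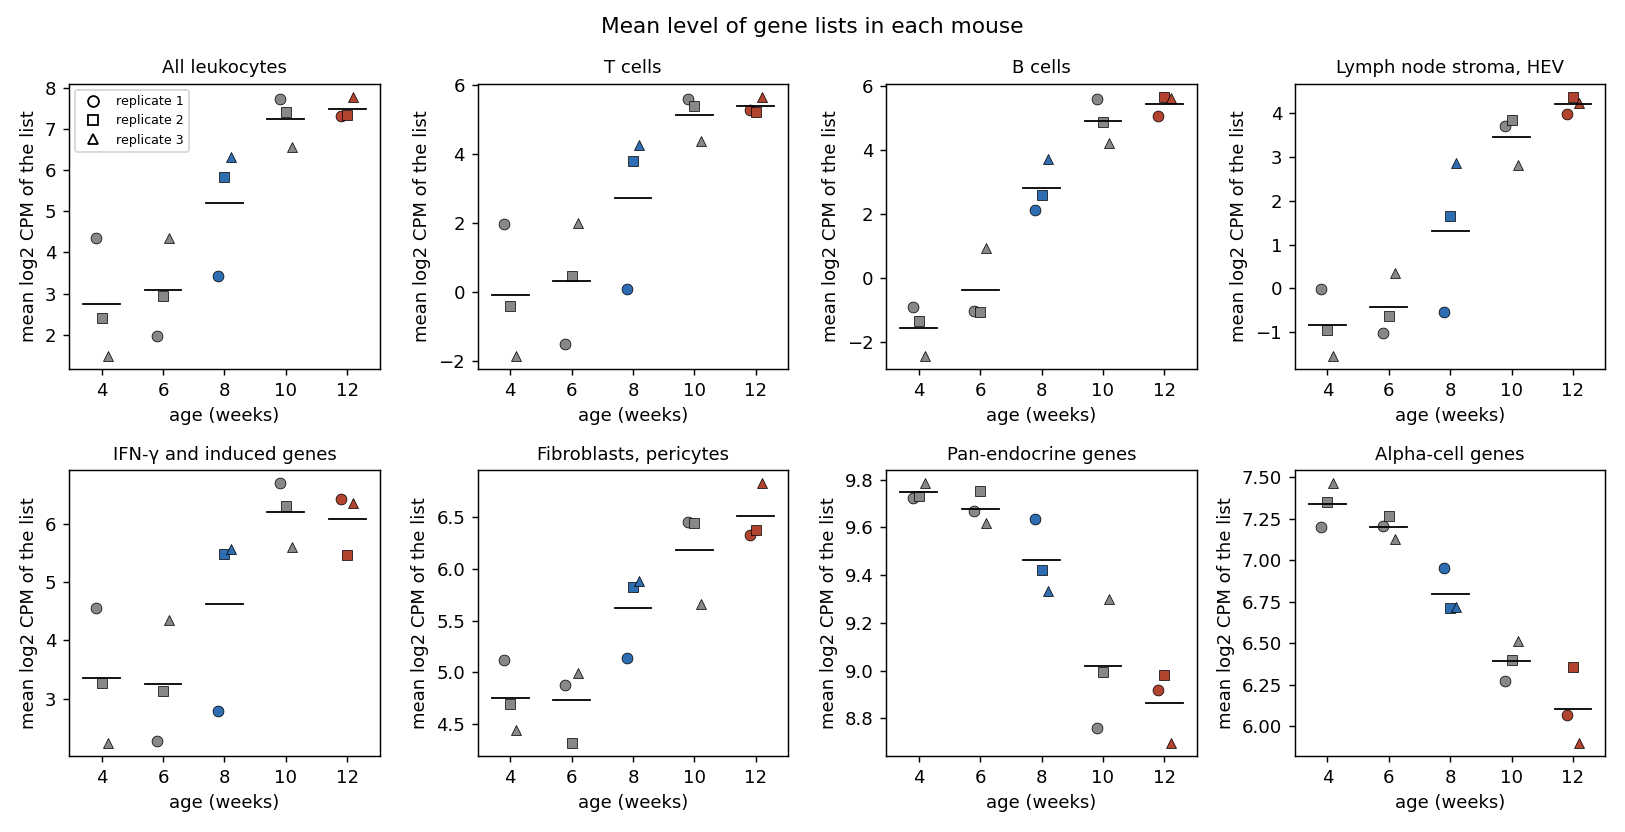
Mean log2 CPM of the members of 8 gene lists (y axis) in each of the 15 mice by age (x axis, weeks); each point is 1 mouse, the symbol gives its replicate number, the line is the mean, and 8 and 12 weeks are blue and red. The 12-week mice lie above the 8-week mice in the leukocyte, T-cell, B-cell, lymph node and fibroblast lists and below them in the endocrine lists, and 8-week replicate 1 lies far below the other 8-week mice in the leukocyte and T-cell lists.

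Of the genes tested, 3446 were DEGs (20.8%), of which 2580 were higher and 866 lower at 12 weeks. With an adjusted p under 0.05, 2815 genes rose (17.0%) and 2951 fell (17.8%). The 12-week mice were all above the 8-week mice for 26.1% of genes and all below them for 25.2%. The median change of all genes was -0.01, so that the counts of list members below are read against these shares. Scaling by library totals in place of TMM moved that median to 0.12 and the share of DEGs that were higher from 74.9% to 89.9%, and the share of calls with an adjusted p under 0.05 that were higher from 48.8% to 74.2%. The list members named below as risen or fallen are given relative to the TMM scale. Without 8-week replicate 1 the genes with an adjusted p under 0.05 numbered 1721, without 8-week replicate 2 3678 and without 12-week replicate 3 2235, against 5766 with all mice. With each mouse left out 864, 1765, 2890, 2060, 2465 and 1129 genes rose and 857, 1913, 2980, 2137, 2592 and 1106 fell. These fits tested 16741 to 16891 genes, and the list counts moved with them. A list share near that of all genes, as in the T-cell, cytotoxic-cell and macrophage lists, is not read as a result about the list.

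T-cell transcripts were higher in every 12-week mouse than in every 8-week mouse, but most of them did not reach the threshold. Of 13 T-cell genes all 13 did not overlap between the ages, beside 26.1% of all genes, with a median log2 fold change of 1.84. Those that rose numbered 2 (0, 1, 2, 1, 1 and 0 with each mouse left out), beside 17.0% of all genes. Cd3e, a chain of the T-cell receptor complex, measured 0.730, 14.5 and 19.9 CPM at 8 weeks and 39.1, 36.0 and 50.6 CPM at 12 weeks. Replicate 1 of the 8-week mice was nearly without Cd3e while the other two were between it and the 12-week mice, and the change was not called (log2 fold change 1.84 ± 1.04, adjusted p = 0.178). Cd8a, the coreceptor of cytotoxic T cells, had the same layout, with 0.547, 15.2 and 17.5 CPM at 8 weeks and 44.1, 37.2 and 52.4 CPM at 12 weeks (log2 fold change 2.01 ± 1.02, adjusted p = 0.136). The members that rose were Cd2, an adhesion receptor (log2 fold change 1.94 ± 0.71, adjusted p = 0.0497), and Thy1, which fibroblasts share (log2 fold change 1.41 ± 0.40, adjusted p = 0.0200). Without 8-week replicate 1 the T-cell median was 1.29, beside a background of 5.12% of all genes that rose in that fit.

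Among 11 genes of cytotoxic cells 2 rose (0, 1, 1, 0, 1 and 0 with each mouse left out, median with all mice 2.04), beside 17.0% of all genes. Gzmk, a granzyme of effector and memory T cells, rose from 0.219, 1.85 and 0.857 CPM to 4.76, 2.21 and 5.69 CPM, without overlap (log2 fold change 2.11 ± 0.70, adjusted p = 0.0354). Klrg1, an inhibitory receptor of differentiated effector cells, rose from 0.0365, 0.0713 and 0.179 CPM to 0.519, 0.535 and 0.943 CPM (log2 fold change 2.75 ± 0.89, adjusted p = 0.0329), on few reads. Gzmb, the granzyme that starts death of target cells, overlapped between the ages because 12-week replicate 2, at 1.07 CPM, lay below both 8-week replicates 2 and 3 (log2 fold change 1.73 ± 1.08, adjusted p = 0.219). Of 8 genes of regulatory T cells 2 rose (0, 0, 3, 1, 2 and 0 with each mouse left out), Tnfrsf18, which encodes GITR (log2 fold change 1.66 ± 0.52, adjusted p = 0.0285), and Ikzf4 (log2 fold change 0.54 ± 0.18, adjusted p = 0.0344). Foxp3, their defining transcription factor, overlapped, at 0.365, 5.67 and 8.32 CPM at 8 weeks and 9.76, 8.29 and 12.9 CPM at 12 weeks (log2 fold change 1.11 ± 1.07, adjusted p = 0.428). Of 12 inhibitory checkpoint genes only Vsir, which encodes VISTA, rose with all mice (log2 fold change 1.55 ± 0.46, adjusted p = 0.0230), the count was 0, 0, 3, 1, 2 and 0 with each mouse left out, and Pdcd1, which encodes PD-1, had a log2 fold change of 1.35 ± 1.0 (adjusted p = 0.297).

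Of the immune lists the B-cell list had the largest share of members that rose. Of its 12 genes 11 rose (9, 10, 11, 10, 10 and 10 with each mouse left out) and all 12 did not overlap, with a median log2 fold change of 2.57. Cd79a, a signaling chain of the B-cell receptor, rose from 13.9, 14.0 and 30.1 CPM to 70.8, 106 and 103 CPM, 4.81 times as much (log2 fold change 2.27 ± 0.40, adjusted p = 0.00597). Ms4a1, which encodes CD20, measured 8.21, 8.59 and 20.2 CPM at 8 weeks and 51.3, 85.9 and 81.7 CPM at 12 weeks (log2 fold change 2.56 ± 0.59, adjusted p = 0.0104). In these genes 8-week replicates 1 and 2 were close to each other, 8-week replicate 3 was higher, and the lowest 12-week mouse was replicate 1. The largest change was that of Cr2 (chromosome 1, 195136811 to 195176716, minus strand), the complement receptor CD21 of follicular B cells and follicular dendritic cells, with 4.23, 4.24 and 10.4 CPM at 8 weeks and 28.7, 70.7 and 58.4 CPM at 12 weeks (log2 fold change 3.06 ± 0.57, adjusted p = 0.00644). Pax5, the transcription factor that holds B-cell identity, followed (log2 fold change 2.89 ± 0.49, adjusted p = 0.00584), and Fcer2a, which encodes CD23 of mature follicular B cells, rose as well (log2 fold change 2.76 ± 0.50, adjusted p = 0.00618). Fcrla was the member that missed the threshold (log2 fold change 2.27 ± 0.89, adjusted p = 0.0640).

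The B-cell result held without the 8-week mouse with little leukocyte RNA. The mean log2 CPM of the list was 2.12, 2.61 and 3.73 at 8 weeks and 5.07, 5.67 and 5.62 at 12 weeks, and 9 of the 12 genes rose without 8-week replicate 1, with a median of 2.28. In 8-week replicate 1 the B-cell mean lay above the T-cell mean, unlike in the other 8-week mice: the B-cell minus T-cell difference in mean log2 CPM was 2.02, -1.19 and -0.53 at 8 weeks and -0.20, 0.46 and -0.05 at 12 weeks. The 3 mice of an age thus differed in the balance of the 2 lineages, over a range that was wider at 8 than at 12 weeks.

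Immunoglobulin constant-region genes differed in whether they passed the threshold, and no difference between classes was tested. All 11 tested had a positive log2 fold change, with a median of 1.62. Ighd (chromosome 12, 113406604 to 113416324, minus strand), the IgD heavy chain of mature naive B cells, rose from 4.16, 8.74 and 16.2 CPM to 55.6, 101 and 78.1 CPM (log2 fold change 3.01 ± 0.58, adjusted p = 0.00687). Ighm, the IgM heavy chain that both B cells and plasma cells make, overlapped widely, at 164, 536 and 1157 CPM at 8 weeks and 679, 1183 and 788 CPM at 12 weeks (log2 fold change 0.51 ± 0.85, adjusted p = 0.652). Ighg1 rose (log2 fold change 2.95 ± 0.96, adjusted p = 0.0364), with the highest level, 35.6 CPM, in 12-week replicate 2. The kappa light chain Igkc was not called (log2 fold change 0.88 ± 0.85, adjusted p = 0.426), while the lambda chains Iglc2 (log2 fold change 1.98 ± 0.71, adjusted p = 0.0469) and Iglc3 (log2 fold change 2.27 ± 0.73, adjusted p = 0.0321) rose. These 2 lambda genes are near copies of each other, and their reads may have been divided between them. In all, 4 of 11 constant-region genes rose (1, 2, 3, 2, 1 and 1 with each mouse left out). Among variable segments, 12 of 76 tested Ighv, 14 of 65 Igkv, 7 of 14 Trav and 8 of 18 Trbv segments rose and none fell. Of all genes 17.0% rose and 17.8% fell. The shares of Ighv and Igkv that rose lay near that of all genes and are not read as a result about these segments. With each mouse left out, those that rose numbered 4, 7, 14, 14, 8 and 7 for Ighv, 6, 7, 18, 13, 10 and 11 for Igkv, 0, 1, 6, 5, 6 and 1 for Trav and 1, 3, 9, 5, 7 and 2 for Trbv.

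Of 8 plasma-cell genes tested 2 rose and 1 fell, beside 17.0% and 17.8% of all genes, with a median of 0.63. These shares are near those of all genes and are not read as a result about the list. Sdc1, the plasma-cell surface proteoglycan that epithelia also make, rose (log2 fold change 0.73 ± 0.23, adjusted p = 0.0292), as did Pou2af1, a coactivator in B cells and plasma cells (log2 fold change 1.95 ± 0.67, adjusted p = 0.0405). Jchain, which joins secreted IgM and IgA, overlapped at 39.4, 129.5 and 214 CPM at 8 weeks and 126, 261 and 167 CPM at 12 weeks (log2 fold change 0.53 ± 0.87, adjusted p = 0.649). Xbp1, a secretory transcription factor that is also abundant in beta cells, fell (log2 fold change -0.35 ± 0.09, adjusted p = 0.0146). Plasma-cell genes that rose numbered 0, 0, 2, 0, 0 and 0 with each mouse left out and those that fell 0, 0, 1, 2, 1 and 0. Of 12 tested genes of germinal centers and follicular helper cells 2 rose (0, 1, 3, 1, 1 and 0 with each mouse left out), Cxcr5, the receptor that brings cells into B-cell follicles (log2 fold change 2.32 ± 0.76, adjusted p = 0.0333), and the death receptor Fas (log2 fold change 1.21 ± 0.34, adjusted p = 0.0199). Bcl6, the germinal center repressor, changed by 0.58 ± 0.39 (adjusted p = 0.245).

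**Figure D2:**
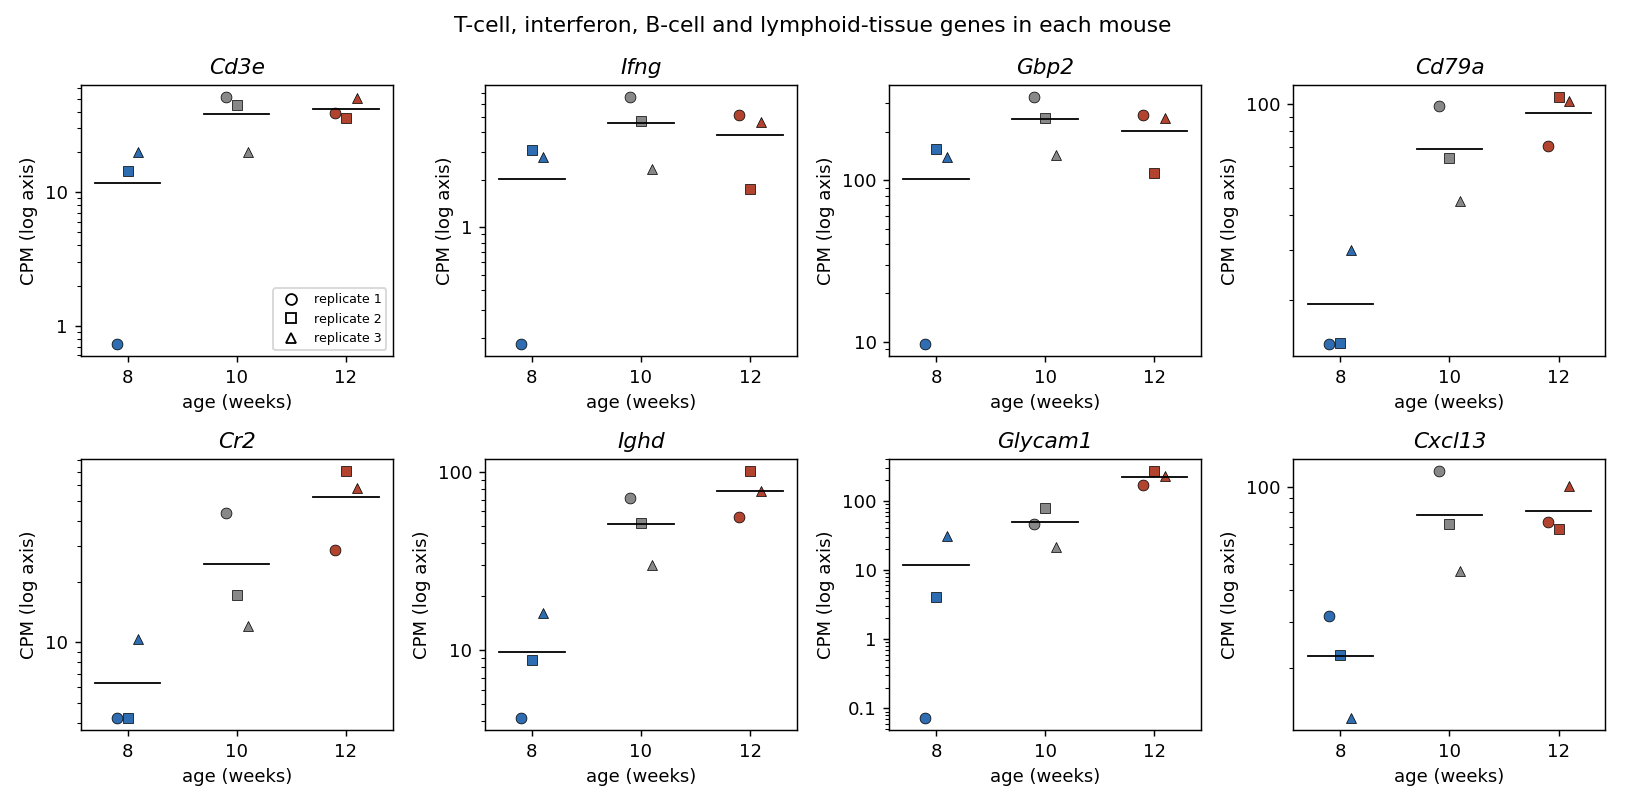
CPM (log axis) of 8 genes in each mouse at 8, 10 and 12 weeks (x axis); each point is 1 mouse, the symbol gives its replicate number, and the line is the mean. Cd3e, Ifng and Gbp2 are low in 8-week replicate 1, Ifng and Gbp2 of 12-week replicate 2 lie below 8-week replicates 2 and 3, and the 12-week mice are all above the 8-week mice for Cd79a, Cr2, Ighd, Glycam1 and Cxcl13.

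Genes of HEVs and lymph node stroma included some of the largest increases. Of 11 such genes 6 rose (4, 2, 7, 5, 5 and 3 with each mouse left out), with a median of 1.86. Glycam1 (chromosome 15, 103562762 to 103565078, minus strand), a mucin of HEVs, measured 0.0730, 4.03 and 31.5 CPM at 8 weeks and 169, 271 and 231 CPM at 12 weeks. It was almost absent from 8-week replicate 1, and the lowest 12-week mouse lay well above the highest 8-week mouse (log2 fold change 4.23 ± 1.03, adjusted p = 0.0119). Madcam1, the vascular ligand of the gut-homing integrin, rose from 0.0365, 0.606 and 2.29 CPM to 6.09, 16.5 and 4.97 CPM (log2 fold change 3.23 ± 0.83, adjusted p = 0.0140). Chst4, a sulfotransferase of HEVs, rose from 0, 0.606 and 1.75 CPM to 6.55, 5.45 and 5.63 CPM (log2 fold change 2.89 ± 0.91, adjusted p = 0.0328), and the fucosyltransferase Fut7 just missed the threshold (log2 fold change 2.55 ± 0.94, adjusted p = 0.0507). Without 8-week replicate 1 the median was 1.99. In 8-week replicate 1, where 3 counts are 0.109 CPM, Glycam1, Madcam1 and Chst4 were all under that floor.

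The chemokines that place lymphocytes in such tissue rose in part. Ccl21a (chromosome 4, 42772860 to 42773993, minus strand), which draws CCR7-bearing T cells and dendritic cells, rose from 2.74, 2.35 and 8.61 CPM to 22.6, 96.6 and 34.5 CPM (log2 fold change 3.49 ± 0.69, adjusted p = 0.00722), and near-identical Ccl21 copies in the mouse genome make its own share of the reads uncertain. Cxcl13, the chemokine of B-cell follicles, measured 31.6, 22.4 and 12.8 CPM at 8 weeks and 72.8, 68.5 and 101 CPM at 12 weeks (log2 fold change 1.86 ± 0.55, adjusted p = 0.0230). Unlike the T-cell genes it was highest, among the 8-week mice, in replicate 1. Cxcl12 (log2 fold change 1.05 ± 0.23, adjusted p = 0.00881) and its receptor Cxcr4 (log2 fold change 1.83 ± 0.39, adjusted p = 0.00803) both rose. Ccl19, the other ligand of CCR7, did not pass (log2 fold change 1.66 ± 0.90, adjusted p = 0.160), nor did Ccr7 itself (log2 fold change 2.20 ± 0.86, adjusted p = 0.0620). In the lymphotoxin branch, which drives lymph node organization through the noncanonical NF-κB pathway, the receptor Ltbr (log2 fold change 0.32 ± 0.11, adjusted p = 0.0404) and the factors Relb (log2 fold change 1.49 ± 0.38, adjusted p = 0.0133) and Nfkb2 (log2 fold change 1.24 ± 0.40, adjusted p = 0.0324) rose, whereas the ligand genes Lta (adjusted p = 0.0594) and Ltb (adjusted p = 0.0640) missed the threshold at log2 fold changes of 1.46 ± 0.56 and 1.99 ± 0.78. Altogether 8 of 14 genes of this list rose (5, 4, 7, 5, 7 and 3 with each mouse left out, median with all mice 1.61), among them Ccl21a and Cxcl13, which the list of lymph node stroma also holds.

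Of 14 homing and adhesion genes, which include Glycam1 and Madcam1, all 14 were higher in every 12-week mouse than in every 8-week mouse and 6 rose (3, 4, 5, 5, 5 and 3 with each mouse left out). The median was 1.62, and 1.20 without 8-week replicate 1. S1pr1, the receptor that lets lymphocytes leave lymphoid tissue, rose from 15.8, 24.7 and 24.3 CPM to 47.9, 67.5 and 75.0 CPM (log2 fold change 1.55 ± 0.24, adjusted p = 0.00538). The endothelial selectin Selp (log2 fold change 1.69 ± 0.55, adjusted p = 0.0331) and the integrin chain Itga4 (log2 fold change 0.89 ± 0.23, adjusted p = 0.0142) also rose. The inflammatory ligands Vcam1 (log2 fold change 1.5 ± 0.72, adjusted p = 0.116) and Icam1 (log2 fold change 1.63 ± 0.75, adjusted p = 0.104) did not pass.

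The 250 bases before the start of Madcam1 are printed because the gene rose with the noncanonical NF-κB factors and the stretch holds 2 matches of the κB letters, GGG and TTCC with any 3 bases between them or, on the other strand, GGAA and CCC, shown in capitals, which 4.65% of 32851 windows of this kind hold at least once (RefSeq, GRCm38.p6, chr10:79664309-79664558, plus strand, 5′ to 3′). Among genes with a single promoter entry, Madcam1 was the only holder of 9 in the list of HEVs and lymph node stroma and of 8 in the homing list. In the list of lymphoid chemokines and lymphotoxin 1 of 9 held the letters, Ltb. The match is a description of the sequence and was not tied to binding.
Madcam1: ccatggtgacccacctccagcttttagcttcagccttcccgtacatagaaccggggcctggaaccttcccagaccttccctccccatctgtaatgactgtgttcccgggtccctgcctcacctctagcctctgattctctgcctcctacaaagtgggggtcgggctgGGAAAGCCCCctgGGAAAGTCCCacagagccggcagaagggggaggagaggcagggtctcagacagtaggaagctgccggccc

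Of 18 genes in the list of interferon gamma and its induced genes 4 rose (1, 2, 3, 1, 4 and 1 with each mouse left out), with a median of 0.99, and 7 did not overlap. Ifng itself measured 0.182, 3.07 and 2.79 CPM at 8 weeks and 5.12, 1.74 and 4.62 CPM at 12 weeks, a change of 0.93 ± 1.03 (adjusted p = 0.492). Gbp2, a guanylate-binding protein gene induced by interferon, measured 9.63, 156 and 139 CPM at 8 weeks and 253, 111 and 242 CPM at 12 weeks (log2 fold change 0.99 ± 1.0, adjusted p = 0.444). In both of these 8-week replicate 1 was far below all other mice, and 12-week replicate 2 was below 8-week replicates 2 and 3. Igtp, an immunity-related GTPase, had the same layout, with 9.63, 121 and 122 CPM at 8 weeks and 225, 82.3 and 195 CPM at 12 weeks (log2 fold change 0.99 ± 0.87, adjusted p = 0.378). The 4 members that rose were the receptor chains Ifngr1 (log2 fold change 1.03 ± 0.24, adjusted p = 0.00983) and Ifngr2 (log2 fold change 0.82 ± 0.23, adjusted p = 0.0196), the kinase Jak2 (log2 fold change 0.71 ± 0.25, adjusted p = 0.0461), and the low-expressed Ido1, which degrades tryptophan (log2 fold change 2.22 ± 0.79, adjusted p = 0.0464). Without 12-week replicate 2 the median was 1.28, and without 8-week replicate 1 it was 0.50.

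The interferon-stimulated response element, searched as GAAA and GAAA or, on the other strand, TTTC and TTTC, with any 2 bases between the copies, was found within 250 bases before the start of 6 of the 10 members of this list that had a single promoter entry, against 2.98% of all 32851 windows. In the list of antiviral genes 6 of 12 held it, and in the B-cell list 1 of 7. The windows of Gbp2 (chr3:142620413-142620662, plus strand) and Igtp (chr11:58199306-58199555, plus strand) are printed 5′ to 3′ from RefSeq (GRCm38.p6) with the element in capitals, which begins 59 and 34 bases before the start.
Gbp2: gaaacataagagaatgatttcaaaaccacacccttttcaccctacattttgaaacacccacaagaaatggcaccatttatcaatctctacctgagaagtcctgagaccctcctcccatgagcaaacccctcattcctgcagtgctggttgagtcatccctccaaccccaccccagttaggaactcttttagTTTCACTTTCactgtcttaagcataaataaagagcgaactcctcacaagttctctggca
Igtp: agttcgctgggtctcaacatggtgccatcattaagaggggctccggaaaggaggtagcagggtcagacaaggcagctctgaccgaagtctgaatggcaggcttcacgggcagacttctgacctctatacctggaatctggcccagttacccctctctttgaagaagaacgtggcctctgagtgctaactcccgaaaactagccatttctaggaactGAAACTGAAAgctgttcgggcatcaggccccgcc

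In other lists downstream of interferon the same 2 mice were the lowest of their ages in mean log2 CPM, and few members passed. Of 16 antiviral genes 1 rose, the RNA sensor Ddx58 (log2 fold change 0.71 ± 0.23, adjusted p = 0.0312), with a list median of 0.77. Of 14 genes of MHC class I presentation 1 rose, the peptide transporter Tap2 (log2 fold change 0.99 ± 0.33, adjusted p = 0.0354), and the light chain B2m measured 113, 945 and 1103 CPM at 8 weeks and 1959, 1054 and 1846 CPM at 12 weeks (log2 fold change 1.17 ± 0.81, adjusted p = 0.268). Of 10 genes of MHC class II presentation 1 rose, H2-Ob, which B cells express (log2 fold change 2.26 ± 0.71, adjusted p = 0.0297), while the invariant chain Cd74 measured 196, 1156 and 1341 CPM at 8 weeks and 2532, 1817 and 2769 CPM at 12 weeks (log2 fold change 1.40 ± 0.75, adjusted p = 0.156). None of 15 chemokines and receptors of the CXCR3 axis passed in edgeR, where 2 had an unadjusted p under 0.05, and DESeq2 called 1. Cxcl9, which draws CXCR3-bearing T cells, measured 2.44, 181 and 179 CPM at 8 weeks and 345, 134 and 347 CPM at 12 weeks (log2 fold change 1.19 ± 1.43, adjusted p = 0.527). For Cxcl9 the value of 12-week replicate 2 lay below those of 8-week replicates 2 and 3 too. Genes higher in every 12-week mouse than in every 8-week mouse numbered 4 of 16 antiviral, 8 of 14 class I and all 10 class II genes. In the CXCR3 axis they numbered 5 of 15, and the share of all genes was 26.1%. The medians were 1.19 for class I, 1.44 for class II and 1.19 for the CXCR3 axis. Calls with each mouse left out numbered 0, 0, 4, 0, 1 and 0 for antiviral genes, 0, 0, 1, 0, 1 and 0 for class I, 0, 0, 1, 1, 0 and 0 for class II and 0, 0, 0, 0, 1 and 0 for the CXCR3 axis.

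Of the cytokines and stress factors that the study discusses, 4 of 14 rose (1, 1, 4, 1, 3 and 1 with each mouse left out). That list was chosen by the study on these samples, so its direction is no independent evidence. Il1b, an inflammatory cytokine of myeloid cells, rose from 2.44, 7.45 and 9.93 CPM to 18.8, 11.2 and 25.1 CPM (log2 fold change 1.47 ± 0.49, adjusted p = 0.0356). Il18 (log2 fold change 1.35 ± 0.33, adjusted p = 0.0120) and the NF-κB subunits Nfkb1 (log2 fold change 0.54 ± 0.17, adjusted p = 0.0308) and Rela (log2 fold change 0.39 ± 0.13, adjusted p = 0.0362) rose too. Tnf did not pass (log2 fold change 1.15 ± 0.81, adjusted p = 0.272), nor did Ccl2, which draws monocytes (log2 fold change 1.18 ± 0.54, adjusted p = 0.102). Atf3, a stress-induced transcription factor, measured 4.23, 4.67 and 3.82 CPM at 8 weeks and 5.96, 4.55 and 8.02 CPM at 12 weeks and overlapped (log2 fold change 0.54 ± 0.27, adjusted p = 0.135).

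Of 11 tested macrophage genes 2 rose and 1 fell, beside 17.0% and 17.8% of all genes, with a median of 1.18. With each mouse left out, 1, 1, 3, 1, 2 and 1 rose. Csf1r, the receptor that macrophages need to survive, measured 17.9, 49.9 and 62.7 CPM at 8 weeks and 100.2, 94.8 and 109.9 CPM at 12 weeks, without overlap, and missed the threshold (log2 fold change 1.22 ± 0.47, adjusted p = 0.0589). Cd14, the coreceptor for bacterial lipopolysaccharide, rose (log2 fold change 1.16 ± 0.24, adjusted p = 0.00764), as did the complement subunit gene C1qa (log2 fold change 1.01 ± 0.35, adjusted p = 0.0410). Itgam could not be matched to 1 row of the table. Of 10 dendritic-cell genes Zbtb46 (log2 fold change 1.06 ± 0.28, adjusted p = 0.0164) and Fscn1 (log2 fold change 1.19 ± 0.39, adjusted p = 0.0336) rose, and the count was 0, 1, 2, 1, 1 and 0 with each mouse left out. Of 9 neutrophil and mast-cell genes 2 could be tested and Kit rose (log2 fold change 1.15 ± 0.32, adjusted p = 0.0192), a gene that is not limited to mast cells (0, 1, 1, 1, 1 and 0 with each mouse left out). Among 12 complement genes 5 rose (2, 3, 5, 3, 5 and 1 with each mouse left out), led by Cd55, which shields cells from complement and stood at 4.89, 4.71 and 7.21 CPM at 8 weeks and 21.2, 33.1 and 25.1 CPM at 12 weeks (log2 fold change 2.24 ± 0.33, adjusted p = 0.00498), and Cfp, which encodes properdin (log2 fold change 1.86 ± 0.48, adjusted p = 0.0145).

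Fibroblasts and vessels changed in some of their genes. Of 11 fibroblast and pericyte genes 8 rose (0, 2, 6, 3, 3 and 0 with each mouse left out, median with all mice 0.83). Dcn, which encodes the matrix proteoglycan decorin, rose from 71.0, 99.3 and 92.0 CPM to 140.3, 206 and 259.7 CPM (log2 fold change 1.21 ± 0.39, adjusted p = 0.0322). The collagen genes Col1a2 (log2 fold change 0.94 ± 0.34, adjusted p = 0.0478) and Col3a1 (log2 fold change 0.73 ± 0.26, adjusted p = 0.0452) rose and Col1a1 did not pass (log2 fold change 0.79 ± 0.38, adjusted p = 0.120). Acta2, the actin of smooth muscle and myofibroblasts, rose (log2 fold change 1.32 ± 0.36, adjusted p = 0.0168), while the pericyte gene Rgs5 changed by 0.03 ± 0.10 (adjusted p = 0.824). The median of the list was 0.62 without 8-week replicate 1. Of 10 endothelial genes 5 rose (1, 5, 5, 5, 5 and 4 with each mouse left out), most of all Vwf, which encodes von Willebrand factor, from 7.70, 18.3 and 10.1 CPM to 31.4, 43.2 and 35.8 CPM (log2 fold change 1.61 ± 0.39, adjusted p = 0.0114). Pecam1, which encodes the junction protein CD31, rose (log2 fold change 0.66 ± 0.10, adjusted p = 0.00538), whereas the capillary receptors Kdr (log2 fold change 0.09 ± 0.09, adjusted p = 0.465) and Flt1 (log2 fold change 0.14 ± 0.13, adjusted p = 0.410) did not pass and overlapped.

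Of 8 Schwann-cell genes 1 fell and 0 rose (0, 1, 1, 1, 0 and 0 fell with each mouse left out). The mesothelial list divided: Msln fell from 44.3, 41.3 and 52.8 CPM to 14.1, 23 and 16.7 CPM (log2 fold change -1.36 ± 0.25, adjusted p = 0.00644), while Upk3b (log2 fold change 2.02 ± 0.71, adjusted p = 0.0440) and Lrrn4 (log2 fold change 4.36 ± 1.16, adjusted p = 0.0161) rose on few reads and highest in 12-week replicate 3. Mesothelial genes that rose numbered 3 with all mice and 3, 1, 2, 3, 2 and 1 with each mouse left out. Of 8 duct genes 5 rose (2, 4, 4, 4, 5 and 3 with each mouse left out). Krt19, a keratin that mesothelium shares, rose from 2.74, 3.14 and 2.61 CPM to 18.8, 6.12 and 9.90 CPM (log2 fold change 2.04 ± 0.40, adjusted p = 0.00714), Spp1, which encodes osteopontin, rose (log2 fold change 1.06 ± 0.20, adjusted p = 0.00644), and Krt7 (log2 fold change -0.32 ± 0.13, adjusted p = 0.0638) and Epcam (log2 fold change -0.14 ± 0.13, adjusted p = 0.386) did not pass. Krt19 and Cftr were highest in 12-week replicate 1, the mouse with intestinal genes. Acinar transcripts, which reach islet samples from attached exocrine tissue, gave no call in edgeR, where 0 of 12 genes had an unadjusted p under 0.05, and DESeq2 and edgeR's exact test called 0 as well. The acinar mean log2 CPM was 8.42, 7.61 and 6.77 at 8 weeks and 9.53, 8.88 and 7.57 at 12 weeks, so the mice of 1 age differed by as much as the ages.

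**Figure D3:**
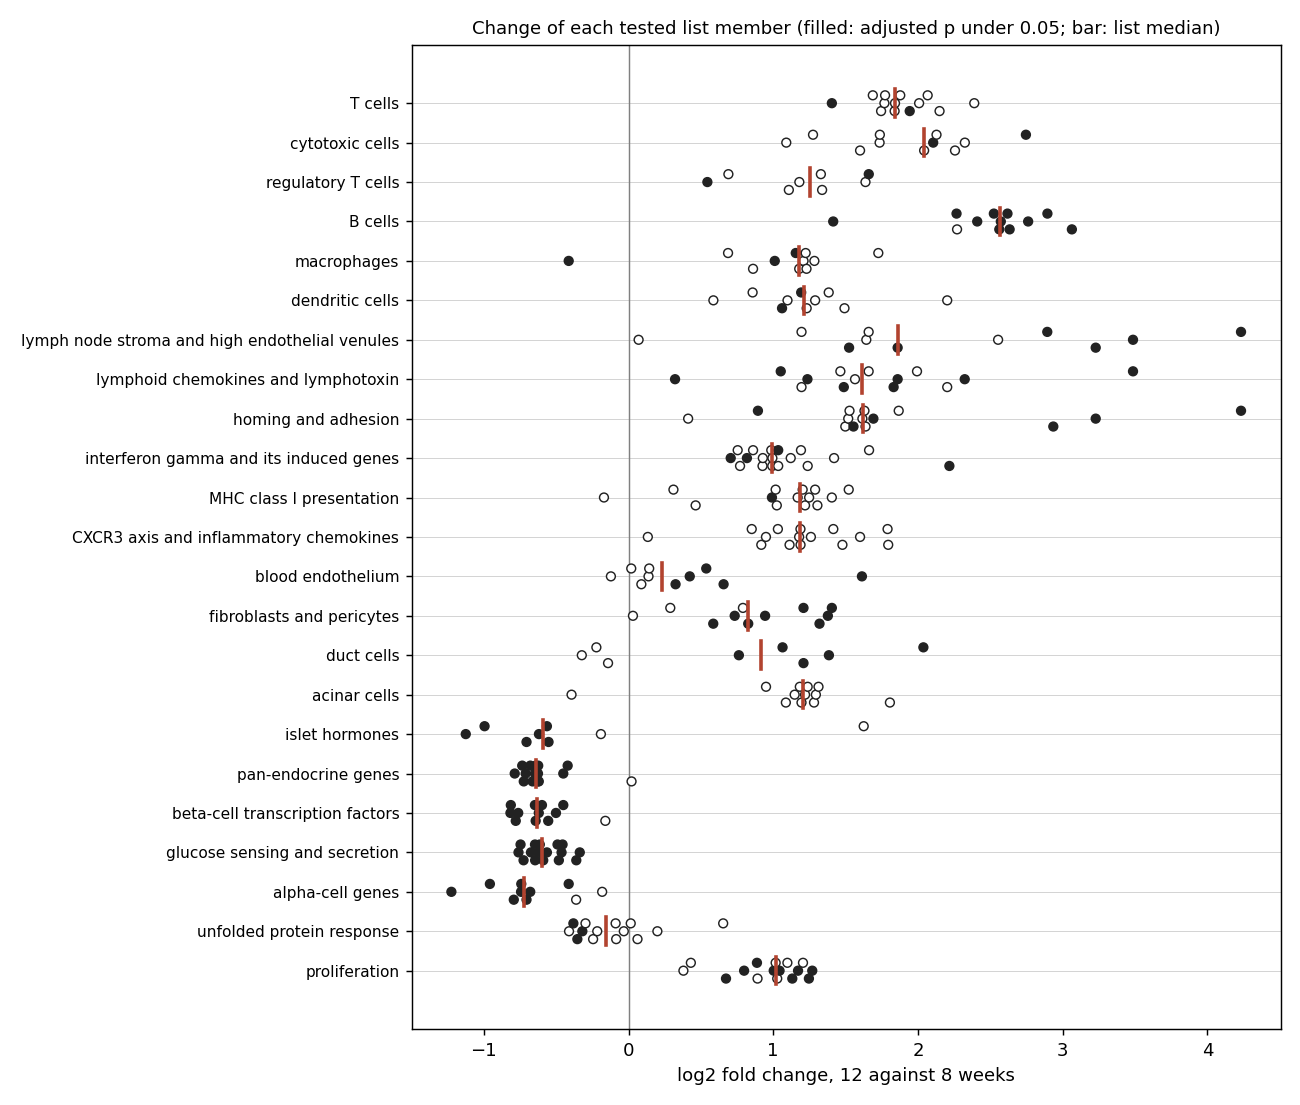
Log2 fold change at 12 against 8 weeks (x axis) of each tested member of 23 gene lists (y axis); filled points have an adjusted p under 0.05 in edgeR and the bar is the list median. Most points of the endocrine lists lie left of 0 and are filled, the B-cell list has 11 of 12 points filled, and T-cell and interferon lists lie right of 0 with few points filled.

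Most genes of the endocrine lists fell. Of 8 hormone genes 6 fell, of 15 pan-endocrine genes 14, of 12 beta-cell transcription factors and maturity genes 11, of 16 genes of glucose sensing and secretion 16 and of 10 alpha-cell genes 8, with medians of -0.59, -0.64, -0.63, -0.60 and -0.72. In bulk samples fewer cells of a type and less RNA per cell cannot be told apart, nor can a larger share of RNA from other cells. Without 8-week replicate 1, which had the highest endocrine levels, the medians were -0.48, -0.56, -0.50, -0.51 and -0.61, and 5.08% of all genes fell. Genes that fell with each mouse left out numbered 3, 6, 6, 4, 6 and 3 for hormones, 10, 13, 13, 15, 13 and 9 for pan-endocrine genes, 5, 9, 11, 11, 10 and 5 for beta-cell factors, 1, 11, 15, 8, 14 and 5 for sensing and secretion and 6, 8, 9, 7, 9 and 6 for alpha-cell genes.

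Ins2 measured 168696, 125135 and 118064 CPM at 8 weeks and 89732, 102635 and 75891 CPM at 12 weeks (log2 fold change -0.62 ± 0.19, adjusted p = 0.0272). Ins1 (chromosome 19, 52264323 to 52265456, plus strand), the second insulin gene of the mouse, measured 71438, 51044 and 57204 CPM at 8 weeks and 45232, 40304 and 36022 CPM at 12 weeks (log2 fold change -0.56 ± 0.17, adjusted p = 0.0230), and all 12-week mice were below all 8-week mice for both. Iapp, which is released with insulin, fell by a like amount (log2 fold change -0.55 ± 0.11, adjusted p = 0.00722). Gcg, which encodes glucagon of alpha cells, measured 34783, 29481 and 28125 CPM at 8 weeks and 16581, 23051 and 17055 CPM at 12 weeks (log2 fold change -0.70 ± 0.14, adjusted p = 0.00735), with 12-week replicate 2 closest to the 8-week mice. The largest decreases among hormones were those of Pyy, peptide YY, from 1559.7, 1166 and 1079.7 CPM to 474, 756 and 515 CPM (log2 fold change -1.12 ± 0.24, adjusted p = 0.00811), and Ppy, pancreatic polypeptide (log2 fold change -0.99 ± 0.30, adjusted p = 0.0252). Ghrl, ghrelin, stayed under 0.5 CPM in all 6 mice and did not pass (log2 fold change 1.63 ± 1.03, adjusted p = 0.225). Sst, the hormone of delta cells, overlapped at 6774, 6124 and 5159 CPM at 8 weeks and 6410.4, 5047 and 4363 CPM at 12 weeks (log2 fold change -0.19 ± 0.17, adjusted p = 0.394).

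The 250 bases before the start of Ins1 are printed, as those of an insulin gene that fell, with the E box of insulin promoters, searched as GCCATCTG or CAGATGGC, in capitals (RefSeq, GRCm38.p6, chr19:52264047-52264296, plus strand, 5′ to 3′). The box begins 86 bases before the start used for the window, and 1.11% of all windows hold it. The window ends at 52264296, so its start lies upstream of the gene start given above.
Ins1: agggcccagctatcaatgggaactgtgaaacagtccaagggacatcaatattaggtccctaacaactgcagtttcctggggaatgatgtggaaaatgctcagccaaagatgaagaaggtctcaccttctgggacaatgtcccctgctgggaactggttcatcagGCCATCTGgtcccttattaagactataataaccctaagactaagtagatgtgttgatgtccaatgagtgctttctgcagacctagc

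Of the transcription factors of beta cells, Pdx1 fell from 196, 162 and 151 CPM to 132, 118 and 96.4 CPM (log2 fold change -0.55 ± 0.15, adjusted p = 0.0187). Nkx6-1, which keeps beta cells from an alpha-cell program, measured 676, 589 and 539 CPM at 8 weeks and 342, 402 and 307 CPM at 12 weeks (log2 fold change -0.78 ± 0.16, adjusted p = 0.00735). Mafa, a marker of mature beta cells, fell (log2 fold change -0.60 ± 0.21, adjusted p = 0.0440), although its lowest 8-week mouse overlapped the highest 12-week mouse. Neurod1, an endocrine differentiation factor, fell by 0.64 on the log2 scale (adjusted p = 0.00604). The largest decreases in the list were those of Mlxipl, the glucose-responsive factor ChREBP (log2 fold change -0.82 ± 0.17, adjusted p = 0.00801), and Foxa2 (log2 fold change -0.81 ± 0.15, adjusted p = 0.00654), and Ucn3, a peptide of mature beta cells, fell as well (log2 fold change -0.76 ± 0.16, adjusted p = 0.00740). Hnf4a was the member that did not pass (log2 fold change -0.16 ± 0.19, adjusted p = 0.518).

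In glucose sensing and secretion, Slc2a2, the glucose transporter GLUT2, measured 1318, 1038 and 926 CPM at 8 weeks and 581, 812 and 563 CPM at 12 weeks (log2 fold change -0.75 ± 0.21, adjusted p = 0.0196). The members of the ATP-sensitive potassium channel, Kcnj11 (log2 fold change -0.65 ± 0.15, adjusted p = 0.0104) and Abcc8 (log2 fold change -0.62 ± 0.14, adjusted p = 0.00904), fell by nearly the same amount. The smallest decreases were in the vesicle fusion genes Stx1a (log2 fold change -0.34 ± 0.11, adjusted p = 0.0376) and Vamp2 (log2 fold change -0.36 ± 0.12, adjusted p = 0.0377). Of the granule and endocrine genes, Chga, chromogranin A, measured 9631, 8545 and 8334 CPM at 8 weeks and 5212, 6279 and 4707 CPM at 12 weeks (log2 fold change -0.71 ± 0.17, adjusted p = 0.0116), and Insm1, an endocrine transcription factor, had the largest decrease (log2 fold change -0.79 ± 0.13, adjusted p = 0.00538). Chgb, chromogranin B, was the exception, at 1868, 1745 and 1647 CPM at 8 weeks and 2587, 1339.5 and 1411 CPM at 12 weeks (log2 fold change 0.02 ± 0.20, adjusted p = 0.940). Its highest value was in 12-week replicate 1, the mouse with intestinal genes, and without that mouse its log2 fold change was -0.35 ± 0.11 (adjusted p = 0.0390).

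**Figure D4:**
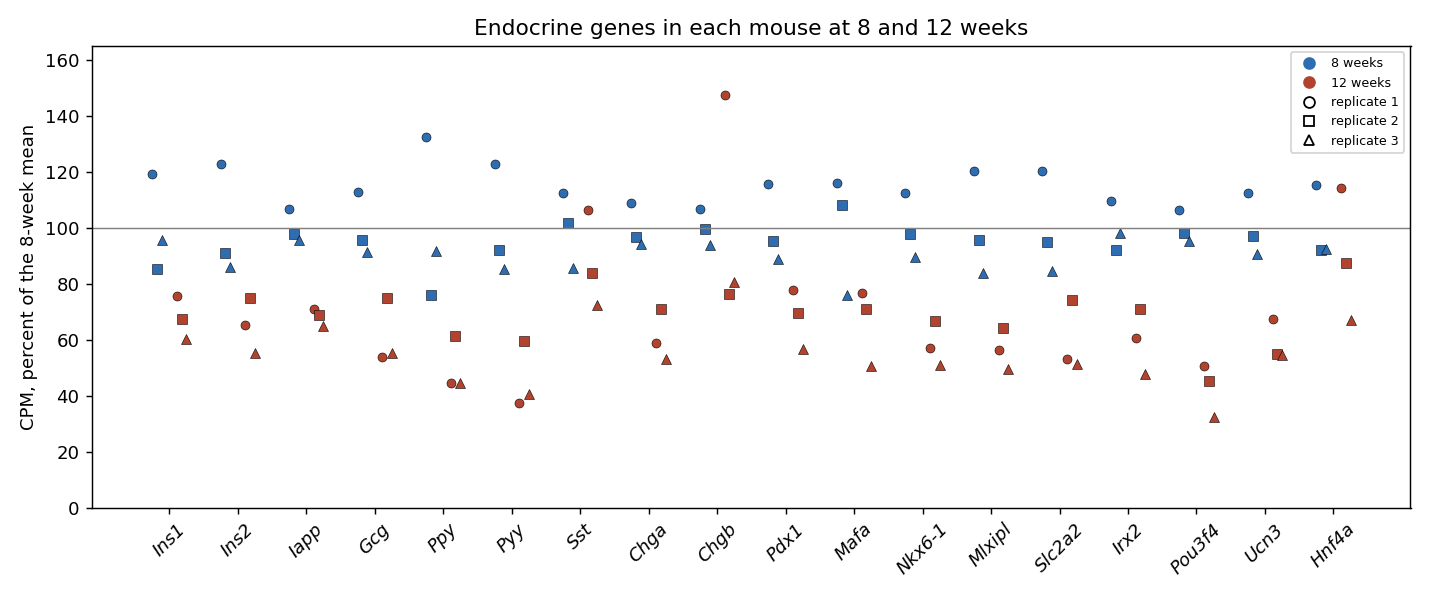
CPM of 18 endocrine genes (x axis) as a percentage of the 8-week mean of the gene (y axis); each point is 1 mouse, blue at 8 weeks and red at 12 weeks, and the symbol gives the replicate number. The 12-week mice lie below the 8-week mice for most genes, Sst and Hnf4a overlap, and Chgb of 12-week replicate 1 lies above every 8-week mouse.

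Of the alpha-cell genes Pou3f4, a transcription factor of these cells, fell from 5.25, 4.85 and 4.71 CPM to 2.50, 2.24 and 1.60 CPM (log2 fold change -1.22 ± 0.21, adjusted p = 0.00592). Irx2 fell (log2 fold change -0.74 ± 0.14, adjusted p = 0.00708) while Irx1 did not pass (log2 fold change -0.36 ± 0.17, adjusted p = 0.109). Pcsk2, a prohormone protease gene of the pan-endocrine list that the study names among alpha-cell markers, fell (log2 fold change -0.66 ± 0.14, adjusted p = 0.00766). Against the pan-endocrine mean of the same mouse, the alpha-cell mean lay at -2.68, -2.71 and -2.61 log2 units at 8 weeks and -2.86, -2.63 and -2.80 at 12 weeks, and the mean of the beta-cell transcription factors at -2.24, -2.29 and -2.33 and -2.24, -2.30 and -2.35. Both differences overlapped between the ages. Neurod1 and some other genes belong to both the beta-cell and the pan-endocrine list, so part of the second difference cancels by construction.

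Of 14 genes of the unfolded protein response 3 fell (0, 0, 5, 3, 2 and 0 with each mouse left out), the chaperones Hspa5 (log2 fold change -0.38 ± 0.14, adjusted p = 0.0452) and Hsp90b1 (log2 fold change -0.32 ± 0.09, adjusted p = 0.0171) with Xbp1, and the stress factor Ddit3 changed by 0.06 ± 0.14 (adjusted p = 0.740). Of 12 tested genes of lost identity and regeneration 4 rose (1, 3, 4, 3, 4 and 0 with each mouse left out), with a median of 1.48 and of 1.12 without 8-week replicate 1. Besides the hexokinase gene Hk1 (log2 fold change 1.02 ± 0.25, adjusted p = 0.0121) and the duct and progenitor factor Sox9 (log2 fold change 0.76 ± 0.20, adjusted p = 0.0161) they were Ldha, lactate dehydrogenase, from 21.3, 60.5 and 69.5 CPM to 161, 107 and 152 CPM (log2 fold change 1.47 ± 0.41, adjusted p = 0.0194), and Slc16a1, a lactate transporter (log2 fold change 1.62 ± 0.46, adjusted p = 0.0200), both kept low in healthy beta cells and high in activated lymphocytes. Aldh1a3, a mark of beta cells that lost their identity, measured 1.02, 0.784 and 1.29 CPM at 8 weeks and 1.13, 1.71 and 1.01 CPM at 12 weeks and did not pass (log2 fold change 0.31 ± 0.37, adjusted p = 0.522). The pan-leukocyte mean was higher in the same mice, and its part in the Ldha and Slc16a1 results was not tested.

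Of 16 proliferation genes tested 9 rose (2, 4, 13, 3, 9 and 2 with each mouse left out) and 15 did not overlap, with a median of 1.02. Mki67, the proliferation antigen Ki-67, measured 9.27, 32.7 and 35.4 CPM at 8 weeks and 52.7, 46.3 and 66.6 CPM at 12 weeks and just missed the threshold (log2 fold change 1.10 ± 0.41, adjusted p = 0.0527). Mcm2, of the replication helicase, rose from 14.8, 17.7 and 22.4 CPM to 33.9, 28.0 and 33.7 CPM (log2 fold change 0.80 ± 0.16, adjusted p = 0.00745), as did the DNA clamp Pcna (log2 fold change 0.67 ± 0.15, adjusted p = 0.00955) and the mitotic transcription factor Foxm1 (log2 fold change 0.89 ± 0.28, adjusted p = 0.0289). Which cells divided cannot be read from bulk RNA. In the Hedgehog pathway 3 of 8 rose (0, 1, 3, 3, 1 and 0 with each mouse left out), the signal transducer Smo (log2 fold change 0.73 ± 0.22, adjusted p = 0.0233), the inhibitor Sufu (log2 fold change 0.44 ± 0.13, adjusted p = 0.0261) and the transcription factor and target Gli1 (log2 fold change 0.86 ± 0.27, adjusted p = 0.0291). The ligand Ihh, with 3, 1 and 4 counts at 8 weeks and 45, 4 and 4 counts at 12 weeks, was removed by the filter on low counts. Its 45 counts were in 12-week replicate 1, the mouse with intestinal genes, and its other values were near the floor. The receptor Ptch1 (log2 fold change -0.13 ± 0.08, adjusted p = 0.233) and Gli3 (log2 fold change 1.09 ± 0.44, adjusted p = 0.0719) did not pass.

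Among the smallest p-values of the whole comparison were genes of cytosolic ribosomal proteins, a group that was therefore chosen after its values were seen and has no test of its own. Of 78 tested 70 had an adjusted p under 0.05, all higher at 12 weeks, with a median of 0.51. The mean log2 CPM of the list was 6.21, 6.24 and 6.44 at 8 weeks and 6.76, 6.74 and 6.82 at 12 weeks. Rpl39 measured 118, 127 and 138 CPM at 8 weeks and 223, 213 and 219 CPM at 12 weeks (log2 fold change 0.77 ± 0.08, adjusted p = 0.00498), and Rps23 257, 241 and 288 CPM at 8 weeks and 428, 381 and 414 CPM at 12 weeks (log2 fold change 0.63 ± 0.09, adjusted p = 0.00498). With each mouse left out, 66, 68, 70, 69, 71 and 70 were called. Many of these genes have processed pseudogenes with nearly the same sequence, which makes the count of each single gene uncertain. Igf2bp2, an RNA-binding protein gene named for the same adjusted p, fell from 8.21, 7.02 and 7.64 CPM to 3.44, 3.71 and 3.43 CPM (log2 fold change -1.11 ± 0.14, adjusted p = 0.00498).

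Among genes that rose without overlap and reached a mean of 1 CPM at 12 weeks, the 10 with the greatest log2 fold change were mostly carried by 1 mouse. Fabp1, B4galnt2, Ces2c, Cyp4f14, Tph1 and Aoc1, which are expressed in intestinal epithelium among other tissues, were high in 12-week replicate 1. Fabp1, a fatty acid carrier of gut and liver, had 0, 5 and 7 counts at 8 weeks and 823, 37 and 12 counts at 12 weeks (log2 fold change 6.00 ± 2.09, adjusted p = 0.0469), and without 12-week replicate 1 its log2 fold change was 2.45 ± 1.85 (adjusted p = 0.331). The summed CPM of 12 intestinal genes, a list written after this was seen, was 63.6, 51.7 and 62.6 at 8 weeks and 527, 49.1 and 40.9 at 12 weeks, and of its members Sis, the intestinal sucrase, had 0, 0 and 0 counts at 8 weeks and 1903, 0 and 0 counts at 12 weeks. In that list 5 of 12 genes had no count in any 8-week mouse.

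Cd209b, Il22ra2 and Cxcr2 were high in 12-week replicate 2. Cd209b, a lectin of marginal zone and lymph node sinus macrophages, had 3, 2 and 6 counts at 8 weeks and 20, 708 and 9 counts at 12 weeks (log2 fold change 5.91 ± 1.48, adjusted p = 0.0130). Marco and Siglec1, scavenger and adhesion receptors of the same macrophages, measured 1.62, 20.7 and 2.92 CPM and 2.33, 32.2 and 3.65 CPM at 12 weeks, and the summed CPM of 7 such genes, listed after the values were seen, was 2.81, 3.32 and 4.14 at 8 weeks and 8.91, 95.5 and 10.2 at 12 weeks. Without 12-week replicate 2 the B-cell median was 2.42 and that of the HEV list 1.96, against 2.57 and 1.86 with it. Bpifb5 was the remaining increase, with 0, 0 and 2 counts at 8 weeks and 47, 53 and 35 counts at 12 weeks, spread over all 12-week mice. For B4galnt2, Cxcr2 and Bpifb5 the 8-week mice together held 2 counts, so no fold is given.

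Of the genes that fell without overlap and had a mean of at least 1 CPM at either age, gene models and receptor segments aside, the 10 largest decreases were smaller in size. Besides Msln and Pou3f4 they were Fgb, which encodes a fibrinogen chain (25, 33 and 28 counts at 8 weeks and 6, 10 and 9 counts at 12 weeks; log2 fold change -1.91 ± 0.39, adjusted p = 0.00729), Hist3h2ba, a histone gene (8.79, 7.59 and 7.93 CPM at 8 weeks and 2.20, 4.61 and 3.46 CPM at 12 weeks; log2 fold change -1.24 ± 0.23, adjusted p = 0.00640), the zinc finger gene Zfp784 (log2 fold change -1.32 ± 0.32, adjusted p = 0.0119), Acta1, the actin of skeletal muscle (log2 fold change -1.25 ± 0.36, adjusted p = 0.0219), Mfsd4b5 (log2 fold change -1.23 ± 0.41, adjusted p = 0.0367), Ube2u (log2 fold change -1.45 ± 0.46, adjusted p = 0.0291), Tekt5 (log2 fold change -1.41 ± 0.49, adjusted p = 0.0434) and Ptchd2 (log2 fold change -1.36 ± 0.44, adjusted p = 0.0312). Apart from Msln, Hist3h2ba, Zfp784 and Pou3f4, these were genes of few reads.

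Because leukocyte RNA differed so much between mice, the comparison was also fitted with the pan-leukocyte mean of each mouse as a covariate. No gene then passed in edgeR (smallest adjusted p = 0.0835), and 3547 genes had an unadjusted p under 0.05. The covariate is itself higher in every 12-week mouse, so what it takes out and what age adds cannot be told apart. Within that fit the median of the B-cell list was 1.35 and that of the T-cell list -0.59. Cd55 (1.72 ± 0.35), S1pr1 (1.20 ± 0.26), Pax5 (1.82 ± 0.49) and Cxcl13 (1.89 ± 0.72) kept log2 fold changes above 1, and the hormone, pan-endocrine and alpha-cell medians were -0.39, -0.46 and -0.48. With the pan-endocrine mean as covariate, 0 genes passed in edgeR and 988 had an unadjusted p under 0.05, and the medians were 1.04 for B cells and -0.29 for T cells.

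The 10-week mice divide the interval. At 10 against 8 weeks 1391 genes rose (8.40%) and 1385 fell (8.37%), and at 12 against 10 weeks 0 passed in edgeR, with 1245 at an unadjusted p under 0.05 and a smallest adjusted p of 0.244. These comparisons share mice with the one described, so their values are set side by side. The B-cell median was 2.06 at 10 against 8 weeks and 0.45 at 12 against 10 weeks. For pan-endocrine genes the same medians were -0.43 and -0.20, and for the interferon gamma list 1.23 and -0.19. Glycam1, with 46.8, 79.1 and 21.9 CPM at 10 weeks, lay above 8-week replicates 1 and 2 and below all 12-week mice.

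The change from 8 to 12 weeks, the later interval, was set against that from 4 to 8 weeks, the earlier interval, in which 1.86% of genes rose and 2.34% fell. The difference of the 2 changes was tested. In edgeR 15 genes passed (0.0906% of those tested), 14 of them with a more positive change in the later interval. Leading them were genes of cell division that fell from 4 to 8 weeks and were higher again at 12 weeks. Ect2, which starts cytokinesis, measured 16.2, 17.0 and 18.2 CPM at 4 weeks, 4.30, 4.24 and 5.18 CPM at 8 weeks and 7.16, 6.05 and 7.83 CPM at 12 weeks, a difference of the 2 log2 changes of 2.52 ± 0.31 (adjusted p = 0.0189). Anln, which encodes the cytokinesis scaffold anillin, differed by 2.80 ± 0.35 (adjusted p = 0.0189), Wdhd1, a replication factor, by 1.53 ± 0.21 (adjusted p = 0.0312), the mitotic kinase gene Pbk by 3.17 ± 0.44 (adjusted p = 0.0312) and Cnih2, of glutamate receptor trafficking, by 2.22 ± 0.31 (adjusted p = 0.0312). The proliferation list had a mean log2 CPM of 3.93, 3.95 and 4.10 at 4 weeks, 1.99, 3.18 and 3.42 at 8 weeks and 4.06, 3.62 and 4.10 at 12 weeks. This count depended on the mice in the fit: 0 passed without 8-week replicate 1, 8-week replicate 2, 12-week replicate 1 or 12-week replicate 3 in edgeR, where 1641 to 2581 had an unadjusted p under 0.05, 2 without 12-week replicate 2 and 50 without 8-week replicate 3, whereas DESeq2 called 763.

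Immune and endocrine lists did not pass in this difference. The mean log2 CPM of the B-cell list was -0.89, -1.34 and -2.46 at 4 weeks, against 2.12, 2.61 and 3.73 at 8 weeks. The 4-week levels were low, with a summed CPM of 17.9, 13.4 and 8.43 over the 12 genes. In edgeR 0 of 12 genes were called different, with 8 at an unadjusted p under 0.05. The B-cell median was larger in the earlier interval, at 5.52 with 10 genes that rose, than in the later, at 2.57. The pan-endocrine median changed by -0.24 in the earlier interval and -0.64 in the later, with 0 of 15 called and 4 at an unadjusted p under 0.05. For the alpha-cell genes the 2 changes were -0.62 and -0.72. Ribosomal protein genes changed by -0.05 in the earlier interval and 0.51 in the later, and 2 of them, Rpl18 and Rpl39, were called different.

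**Figure D5:**
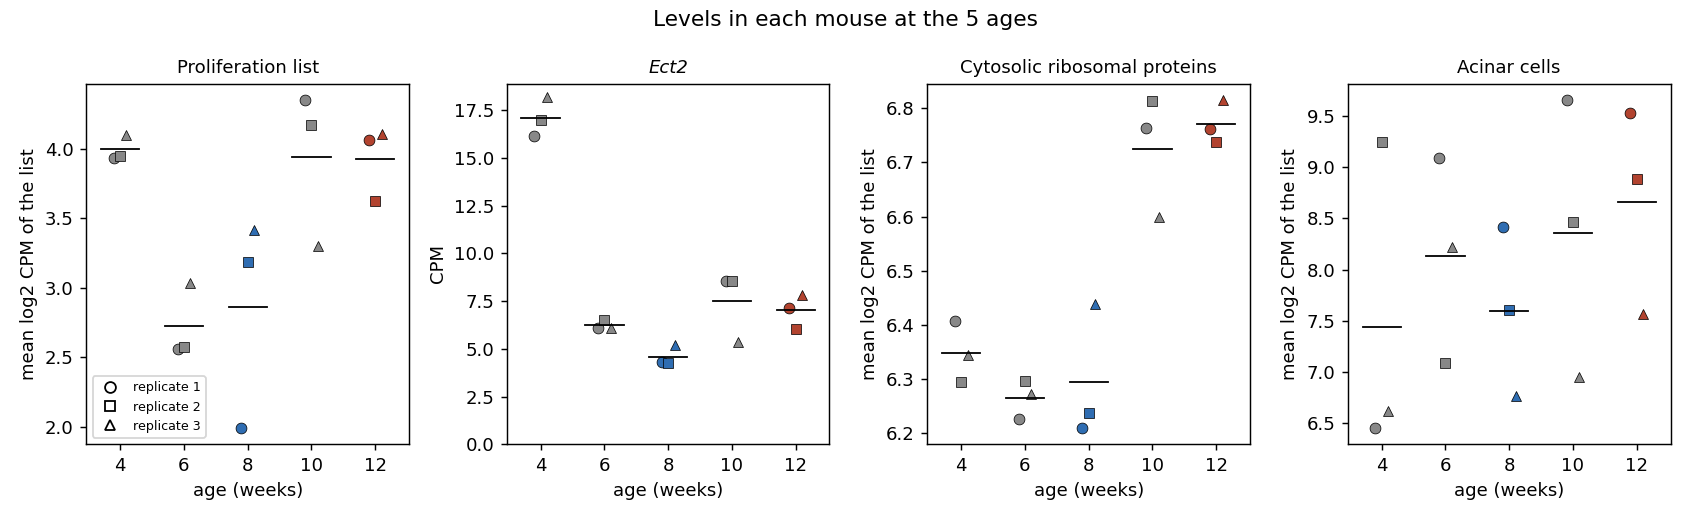
Levels in each of the 15 mice by age (x axis, weeks): the mean log2 CPM of the proliferation, ribosomal protein and acinar lists and the CPM of Ect2 (y axes); each point is 1 mouse, the symbol gives its replicate number and the line is the mean. The means of the proliferation list and of Ect2 are high at 4 weeks, lowest at 6 or 8 weeks and higher again at 10 and 12 weeks, those of the ribosomal protein genes are highest at 10 and 12 weeks, and acinar levels vary as much within an age as between ages.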

How the data were processed

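Islets of NOD females at 5 ages, 3 mice each, were sequenced, and the comparison uses the 8- and 12-week mice by their labels. The deposited counts are the authors' gene totals from CLC Genomics Workbench after trimming, at default settings, on build mm10 per the submitters' processing notes. The deposited TPM values are the authors' scaling of the same reads by gene model length and library, and served only for the insulin share. A further 30 columns of other units, 2 per sample, were not used.

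Counts were fitted with edgeR 4.0.16 in R 4.3.3 (filterByExpr over the 5 ages, TMM scaling, quasi-likelihood test, 1 mean per age over all 15 mice). Of 48709 genes, 22813 had a count and 16554 were tested, with Benjamini-Hochberg adjustment over these. The standard error is the log2 fold change divided by the square root of F. CPM per mouse had a prior count of 2 on the log scale only. Libraries held 25407492 to 41616275 reads. Mice of an age differed from each other by more than sampling noise (chi-square per degree of freedom 15.9 to 70.3). Scripts were tested on simulated data.

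Named genes were, in each list, the first 3 members, the 2 largest rises and falls and members needed for a role, then the 10 largest increases and decreases with an adjusted p under 0.05, no overlap and at least 1 CPM, immune receptor segments and unnamed gene models left out, the 5 smallest p-values for the difference of the 2 intervals, and genes the study discusses. Members and lists were chosen with earlier results of these data known, and 3 lists (ribosomal proteins, intestinal epithelium, lymph node sinus macrophages) after the values were seen. Alternatives were DESeq2 1.42.0, edgeR's exact test, other scaling, no filter, fewer mice, a replicate block and 2 covariates. Promoter windows come from RefSeq on GRCm38.p6, the assembly of mm10, for genes with a single entry. Their starts can differ from the gene coordinates, which come with the counts. Some genes of the lists are counted but not reported here by name.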

Additional observations from a re-analysis of the deposited data

Results flagged for a closer look

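The changes from 8 to 12 weeks and from 4 to 8 weeks differed, by a test of the difference itself in edgeR, for 15 genes, and the difference of the 2 log2 changes was 2.52 for Ect2, 2.80 for Anln, 1.53 for Wdhd1, 3.17 for Pbk and 2.22 for Cnih2. Both intervals share the 8-week mice, so a low value in those mice moves both changes in opposite directions.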

How the results depend on the processing

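The count of DEGs stayed within 1.5 times of its value under every scaling, filter and test tried, and lay between 2317 and 3974 when each of the 6 mice was left out, but was 1183 with the leukocyte covariate and 412 with the pan-endocrine covariate. The count of genes with an adjusted p under 0.05 was 3682 with only the 6 mice compared, 1721 to 5870 with each mouse left out (1721 without 8-week replicate 1, 3678 without 8-week replicate 2, 2235 without 12-week replicate 3) and 0 with either covariate. The count for the difference of the 2 intervals was 5 with library totals, 7 with no filter, 6 with only the 3 ages compared, 763 with DESeq2, 443 with the leukocyte covariate, 3 with the pan-endocrine covariate and 0 to 50 with each mouse left out. edgeR's exact test takes no contrast of 3 ages and was not run for it. Apart from the fewer samples or added term in each fit, the cause was not tested. Replicate numbers did not pair mice: deviations of same-numbered 8- and 12-week mice correlated at -0.00072, -0.23 and 0.23 across genes, and not every mouse correlated best with its own number. With the replicate number as a block, 3213 DEGs, 4505 genes with an adjusted p under 0.05 and 0 for the difference of the 2 intervals were found, and the log2 fold change of Chgb was -0.0016.

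Of the 171 named genes, calls lost numbered 75, 50 and 15 without 8-week replicates 1, 2 and 3 and 44, 29 and 70 without 12-week replicates 1, 2 and 3, against 7 with DESeq2, 8 with the exact test and 9 with library totals. The sign of a log2 fold change turned for Ptch1 with library totals (0.0028). With each mouse left out it turned for Chgb (-0.35 to 0.19, reversed without 8-week replicate 3 and 12-week replicate 1), Ddit3 (-0.026 to 0.18, reversed without 8-week replicate 1), Flt1 (-0.0084 to 0.28, reversed without 12-week replicate 2), Hnf4a (-0.37 to 0.011, reversed without 12-week replicate 3), Kdr (-0.0079 to 0.17, reversed without 8-week replicate 3) and Rgs5 (-0.052 to 0.10, reversed without 8-week replicate 1 and 12-week replicate 3). With the leukocyte covariate it turned for 25 genes, with log2 fold changes then of B2m -0.64, Bcl6 -0.012, Ccl19 -0.58, Ccl2 -0.12, Ccr7 -0.039, Cd3e -0.93, Cd74 -0.34, Cd8a -0.76, Cxcl9 -2.05, Fcrla -0.025, Foxp3 -1.73, Gbp2 -1.31, Gzmb -0.86, Hnf4a 0.052, Icam1 -0.21, Ifng -1.89, Ighm -1.11, Igkc -0.87, Igtp -0.93, Jchain -1.55, Ltb -0.032, Pdcd1 -1.32, Rgs5 -0.045, Tnf -0.64 and Vcam1 -0.22. With the pan-endocrine covariate it turned for 69 genes, then at Acta2 -0.091, Atf3 -0.39, B2m -0.94, Bcl6 -0.51, C1qa -0.22, Ccl19 -0.63, Ccl2 -0.68, Cd2 -0.0024, Cd3e -0.50, Cd74 -0.60, Cd8a -0.32, Chga 0.047, Col1a1 -0.75, Col1a2 -0.50, Col3a1 -0.32, Csf1r -0.12, Cxcl9 -1.83, Dcn -0.20, Ddx58 -0.16, Ect2 -0.0070, Epcam 0.30, Fas -0.17, Foxm1 -0.21, Foxp3 -1.32, Fscn1 -0.26, Gbp2 -1.41, Ghrl -0.018, Gli3 -0.20, Gzmb -1.18, Gzmk -0.34, Hk1 -0.036, Hnf4a 0.62, Icam1 -0.35, Ifng -1.67, Ifngr1 -0.0039, Ifngr2 -0.13, Ighm -1.70, Igkc -1.50, Iglc2 -0.26, Igtp -1.19, Il1b -0.14, Ins1 0.023, Ins2 0.11, Irx1 0.094, Itga4 -0.079, Jak2 -0.42, Jchain -1.84, Kcnj11 0.065, Kit -0.11, Krt7 0.21, Mafa 0.24, Mki67 -0.52, Nfkb1 -0.22, Nfkb2 -0.24, Pdcd1 -0.83, Pdx1 0.19, Ppy 0.27, Ptch1 0.080, Rela -0.17, Rgs5 -0.35, Slc2a2 0.20, Smo -0.14, Sst 0.42, Tap2 -0.11, Tnf -1.17, Ube2u 0.31, Vamp2 0.17, Vcam1 -0.78 and Zbtb46 -0.016. Depth limits genes of few reads such as Klrg1 and Ghrl.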
